A study of Homo sapiens with 2 samples.

Results

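The 33 genes described here encode the core of TGF-beta and BMP signalling. They are 2 ligands, 10 receptors and co-receptors, 3 carriers of latent TGF-beta, 7 SMADs, 4 nuclear repressors and 7 target genes, of which 4 are ID genes. They were picked by gene symbol and are 33 of the 50464 symbols (50868 gene identifiers) in the deposited table. RNA sequencing had been done on KASUMI-1, a human acute myeloid leukaemia line with the RUNX1-RUNX1T1 fusion. 1 library came from cells infected with a lentivirus labelled USP6, the name of a deubiquitinating enzyme. 1 library came from cells infected with a lentivirus labelled pccl, used here as the control. Both cultures were grown in medium with fetal bovine serum and antibiotics. The construct's insert and promoter, the time after infection and the share of infected cells are not given in the sources used here. With 1 cell line and 1 library per group, the differences given here could not be checked against replicates and were not tested.

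The USP6 library held 12518795 counts and the pccl library 12306442. Mitochondrial genes took 45.6% of the counts in the USP6 library and 49.9% in the pccl library. The USP6 gene itself had 70 counts in the USP6 library and 8 in the pccl library, an 8.60-fold higher share (95% interval 4.13 to 20.7); how reads were divided between it and its close paralogues is not stated. A level is given as deposited in FPKM, which divides the count by gene length and library total, and genes reaching 1 FPKM in either library are called expressed. The log2 ratio is log2((USP6 FPKM + 1)/(pccl FPKM + 1)), which understates the differences of low genes, and 1 or -1 was the limit for calling a gene higher or lower. Folds are FPKM ratios without a pseudocount, with exact conditional binomial (Clopper-Pearson) intervals at 95%. These intervals cover counting error only and may be too narrow, since copies made by PCR are not independent molecules.

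TGF-beta, activin and BMP ligands bind a type II receptor kinase, which activates a type I receptor kinase, which in turn phosphorylates receptor-regulated SMADs. SMAD2 and SMAD3 carry TGF-beta and activin signals and SMAD1 and SMAD5 carry BMP signals; each set joins SMAD4 to act on genes in the nucleus, and SMAD6 and SMAD7 damp the pathway. In blood, TGF-beta is known for holding back the growth of stem and progenitor cells, and the ID proteins, classic BMP targets, bind E proteins and keep them off DNA.

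Stretches of DNA upstream of the 3 ID genes and of SMAD6 are shown because these are direct SMAD targets in the literature and ID2 had the largest log2 ratio among the expressed genes of the set. Capitals mark GTCT, the short SMAD-binding motif, or its reverse complement AGAC, so both strands were read. The sequences are from RefSeq on GRCh38.p14, 5′ to 3′ on the gene's strand. The ID1 stretch is chr20:31605039-31605288 (plus strand) and the SMAD6 stretch is chr15:66701986-66702235 (plus strand); each holds the 250 bases before the RefSeq start. For ID2, chr2:8681944-8681973 (plus strand), and ID3, chr1:23559637-23559666 (minus strand), only the 30 bases around the matches are shown, since most of their windows lies within exons of longer GENCODE 29 transcripts.
ID1: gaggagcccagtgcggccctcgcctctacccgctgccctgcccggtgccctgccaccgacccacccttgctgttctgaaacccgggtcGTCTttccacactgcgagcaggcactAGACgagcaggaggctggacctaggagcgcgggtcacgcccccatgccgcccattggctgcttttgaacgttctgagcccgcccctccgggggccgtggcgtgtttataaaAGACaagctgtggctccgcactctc
ID2: cgcccgctcGTCTtgatAGACgtgccacct
ID3: ctccgcgGTCTtcggcgtcAGACcagccgg
SMAD6: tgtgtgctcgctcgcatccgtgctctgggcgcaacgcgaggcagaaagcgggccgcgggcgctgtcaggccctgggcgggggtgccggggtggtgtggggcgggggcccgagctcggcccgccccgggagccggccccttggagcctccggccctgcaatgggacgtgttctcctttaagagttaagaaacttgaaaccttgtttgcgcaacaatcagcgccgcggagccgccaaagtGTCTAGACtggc

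The ID1 window held 3 matches to GTCT on either strand, and the ID2, ID3 and SMAD6 windows held 2 each. In SMAD6 both matches touch end to end and form the palindrome GTCTAGAC, 12 bases before the RefSeq start. Promoter entries were found for 31 of the 33 genes, with 67 windows in all. GTCT was in 49 of these 67 windows (73.1%), against 77.5% of all 35116 windows. GTCTAGAC was in 1 of the 67 windows, against 0.182% of all windows. GGCGCC, the GC-rich SMAD motif that reads the same on both strands, was in 15 of the 67 windows (22.4%), against 16.4% of all windows, and in none of the windows of ID1, ID2, ID3 and SMAD6. These matches describe letters in a window and are no evidence of binding.

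Of the 33 genes, 30 had a count in at least 1 library, and LTBP1, LRRC32 and ID4 had 0 in both. The 18 expressed genes included 2 that were higher in the USP6 library, the endothelial co-receptor ENG and the transcriptional inhibitor ID2. That is 11.1% of the 18, against 13.7% of all 10153 expressed genes. The type II receptor TGFBR2 alone was lower, 5.56% of the 18, against 11.4% of all expressed genes. Both shares are close to or under the background, so the set as a whole did not stand out. Its median log2 ratio was -0.02, with 9 genes above 0 and 9 below, against 0.06 over all expressed genes. ENG was past the limit at 1.22, while TGIF1 at -0.98 and TGFB1 at 0.90 fell just short of it. In RNA from a whole culture, fewer cells that use a gene and less of its RNA per cell cannot be told apart.

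**Figure D1:**
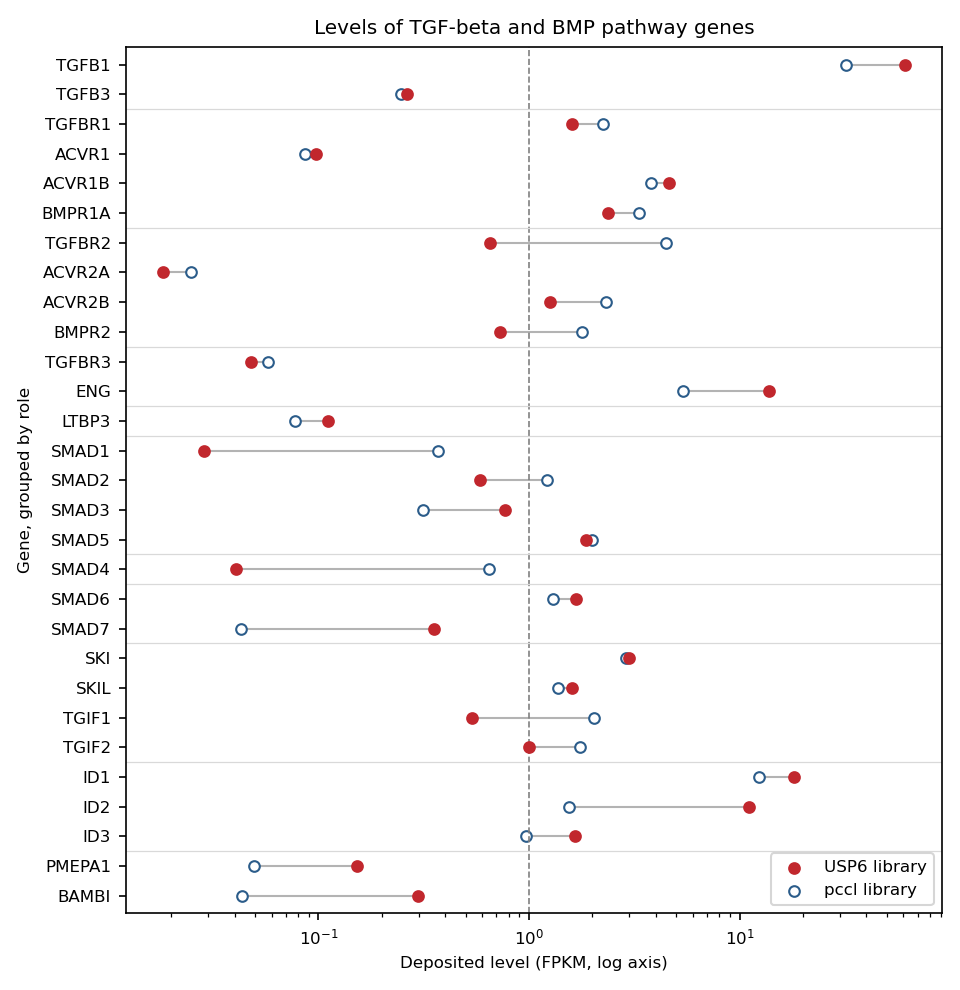
Deposited FPKM on a log axis of the 29 genes with a count in both libraries, grouped by role, with the USP6 library as filled points and the pccl library as open points. TGFBR2, SMAD1, SMAD4 and TGIF1 lie to the left in the USP6 library, ENG, ID2 and SMAD7 to the right, and the dashed line marks 1 FPKM.

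The ligand TGFB1 was the most abundant of the 33 genes per length in both libraries. It had 2763 counts (61.0 FPKM) in the USP6 library and 1433 counts (32.2 FPKM) in the pccl library. That is 1.90-fold higher in the USP6 library (95% interval 1.78 to 2.02), a log2 ratio of 0.90. Per length of its merged exons, TGFB1 lay above 96.7% of expressed genes in the USP6 library and above 93.9% in the pccl library. Genes on the opposite strand overlap it, of which HNRNPUL1 had 5702 counts in the USP6 library and 4364 in the pccl library; whether the counting used strand is not given in the sources used here. TGFB3, a second ligand of the same receptors, had 25 counts in the USP6 library and 23 in the pccl library, and its ratio of 1.07 could not be told from 1 at this depth (95% interval 0.582 to 1.97).

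Among the 3 expressed type I receptors, those for TGF-beta and BMP were lower in the USP6 library and the one for activin was higher, all by less than 2-fold. With the trend with GC content subtracted, which is described further on, the log2 ratios of TGFBR1, BMPR1A and ACVR1B came to 0.05, -0.04 and 0.07, so TGFBR1 changed sign. TGFBR1, the TGF-beta type I receptor, had 362 counts (1.60 FPKM) in the USP6 library and 498 (2.24 FPKM) in the pccl library, 1.40-fold lower (1.22 to 1.61). BMPR1A, a BMP type I receptor, had 339 counts (2.36 FPKM) in the USP6 library and 472 (3.35 FPKM) in the pccl library, 1.42-fold lower (1.23 to 1.63). ACVR1B, the main activin type I receptor, had 456 counts (4.61 FPKM) in the USP6 library and 370 (3.80 FPKM) in the pccl library, 1.21-fold higher (1.05 to 1.39). ACVR1, a further BMP type I receptor, was near the limit of detection with 8 counts in the USP6 library and 7 in the pccl library. Summed over all 4, the counts were 1165 in the USP6 library and 1347 in the pccl library, 1.18-fold lower (1.09 to 1.27).

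The 3 expressed type II receptors were all below 0, with a median log2 ratio of -0.69, the lowest of the roles with expressed genes. With the GC trend subtracted all 3 were still below 0 with a median of -0.37, while the nuclear repressors had the lowest median, -0.53. TGFBR2 (ENSG00000163513, chr3:30606502-30694142, plus strand), which binds TGF-beta itself, had 64 counts (0.656 FPKM) in the USP6 library and 431 (4.49 FPKM) in the pccl library, a log2 ratio of -1.73. The interval of its 6.85-fold lower level ran from 5.26 to 9.05. BMPR2, the type II receptor for BMPs, had 111 counts (0.729 FPKM) in the USP6 library and 267 (1.78 FPKM) in the pccl library, 2.45-fold lower (1.95 to 3.08). ACVR2B, which binds activins and some BMPs, had 265 counts (1.26 FPKM) in the USP6 library and 479 (2.32 FPKM) in the pccl library, 1.84-fold lower (1.58 to 2.14). Its close relative ACVR2A had 3 counts in the USP6 library and 4 in the pccl library, a ratio of 0.737 (0.108 to 4.36). Together the 4 type II receptors had 443 counts in the USP6 library and 1181 in the pccl library, 2.71-fold lower (2.43 to 3.03).

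Since the type II receptor TGFBR2 was lower by more than its type I partner TGFBR1, the balance within the TGF-beta receptor pair differed between the libraries. In FPKM per length of merged exons, TGFBR2 stood at 0.257 times the level of TGFBR1 in the USP6 library and at 1.26 times in the pccl library. On the same scale TGFBR2 lay above 13.2% of expressed genes in the USP6 library and above 70.4% in the pccl library.

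Co-receptors present ligands to the signalling receptors. ENG (endoglin; ENSG00000106991, chr9:127815012-127854756, minus strand) binds BMP9 and BMP10 and is best known from endothelium, although some leukaemic blasts also carry it. ENG had 1095 counts (13.9 FPKM) in the USP6 library and 417 (5.37 FPKM) in the pccl library, 2.58-fold higher (2.30 to 2.90), a log2 ratio of 1.22. The 7 endothelial marker genes summed to 66 counts in the USP6 library and 9 in the pccl library. Of these, CDH5, KDR, VWF, TEK and ESAM had 0 counts in both libraries, TIE1 had 45 in the USP6 library and 8 in the pccl library, and PECAM1 had 21 in the USP6 library and 1 in the pccl library. None of the 7 reached 1 FPKM, and their part in the ENG level was not tested. TGFBR3 (betaglycan), which presents TGF-beta to TGFBR2, had 11 counts in the USP6 library and 13 in the pccl library, a ratio of 0.832 (0.337 to 2.01). The carriers that hold TGF-beta in its latent form were barely seen, with 25 counts for LTBP3 in the USP6 library and 17 in the pccl library, and none for LTBP1 or LRRC32 (GARP).

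**Figure D2:**
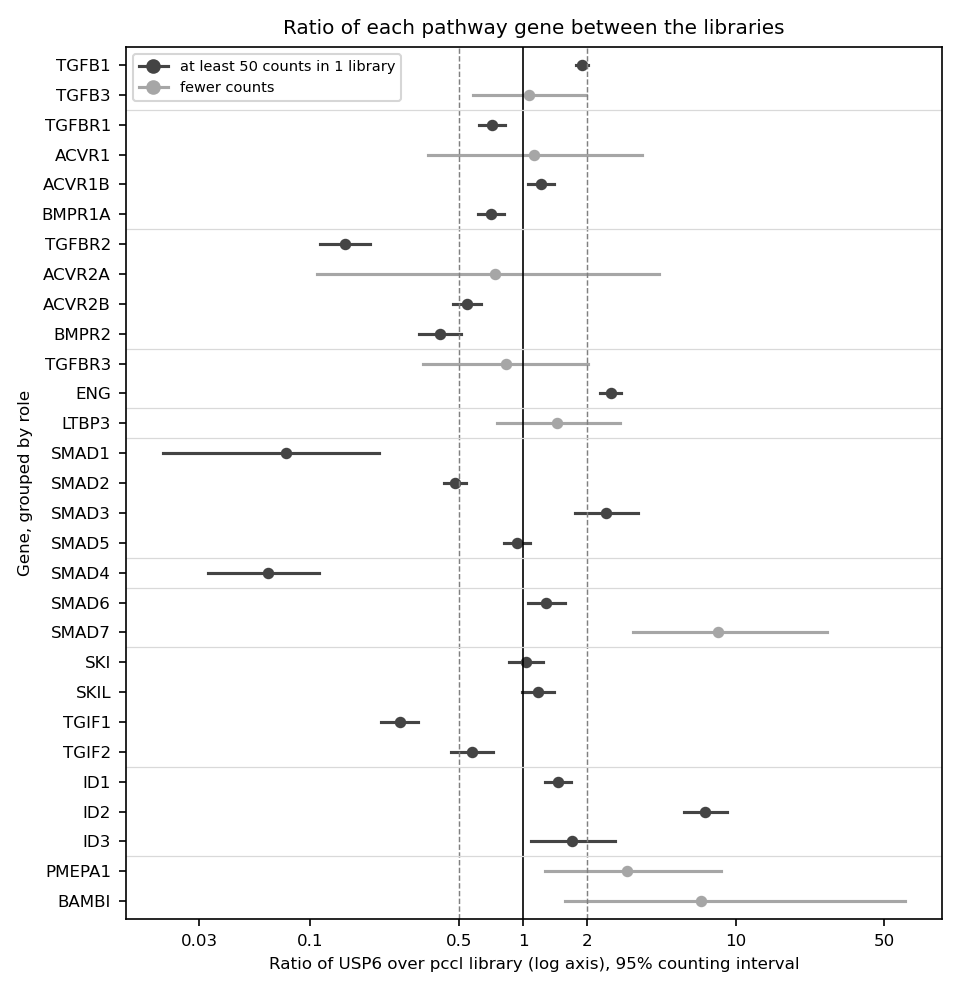
FPKM ratio of the USP6 over the pccl library on a log axis for the 29 genes with a count in both, with exact 95% counting intervals. Dark points had at least 50 counts in 1 library, and dashed lines mark a 2-fold difference either way; the intervals of TGFBR2, SMAD1, SMAD4 and TGIF1 lie wholly below the lower line and those of ENG, ID2 and SMAD7 wholly above the upper one.

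The 7 SMAD genes did not move together. Their counts summed to 1232 in the USP6 library and 1767 in the pccl library, 1.46-fold lower (1.36 to 1.57). SMAD4 (ENSG00000141646, chr18:51028394-51085045, plus strand), the common partner of both branches, had 13 counts (0.0408 FPKM) in the USP6 library and 203 (0.648 FPKM) in the pccl library. This was 15.9-fold lower (9.08 to 30.3), but at under 1 FPKM in both libraries SMAD4 was not among the expressed genes. An overlapping gene on the same strand, AC091551.1, had 11 counts in the USP6 library and 0 in the pccl library. Even if all of these belonged to SMAD4, the sum of 24 counts in the USP6 library against 203 in the pccl library would be 8.60-fold lower (5.62 to 13.7).

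In the BMP branch, SMAD1 and SMAD5 differed from each other. SMAD1 (chr4:145481194-145558079, plus strand) had 4 counts (0.0286 FPKM) in the USP6 library and 51 (0.371 FPKM) in the pccl library, 13.0-fold lower (4.77 to 49.4). SMAD5, by contrast, had 389 counts (1.86 FPKM) in the USP6 library and 410 (1.99 FPKM) in the pccl library, and its interval of 1.23-fold lower to 1.07-fold higher includes no difference. Per length of merged exons, SMAD1 stood at 0.0153 times the level of SMAD5 in the USP6 library and at 0.186 times in the pccl library. SMAD5 was thus the higher of the pair in both. SMAD9, outside the set, had 19 counts (0.223 FPKM) in the USP6 library and 33 (0.394 FPKM) in the pccl library.

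In the TGF-beta branch, SMAD2 was lower and SMAD3 higher in the USP6 library. SMAD2 had 425 counts (0.584 FPKM) in the USP6 library and 870 (1.22 FPKM) in the pccl library, 2.08-fold lower (1.85 to 2.34). A mitochondrial pseudogene within its span, MTCO2P2 on the same strand, had 95 counts of its own in the USP6 library and 128 in the pccl library. SMAD3 had 127 counts (0.772 FPKM) in the USP6 library and 51 (0.316 FPKM) in the pccl library, 2.45-fold higher (1.76 to 3.46). Per length of merged exons, SMAD3 stood at 1.19 times the level of SMAD2 in the USP6 library and at 0.234 times in the pccl library.

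Both inhibitory SMADs, which are themselves induced by the pathway and feed back on it, were higher in the USP6 library. With the GC trend subtracted, the log2 ratio was -0.25 for SMAD6 and -0.08 for SMAD7. In log2 count share, which uses no pseudocount, SMAD6 went from 0.37 to -0.28 and SMAD7 from 3.05 to 2.42 with the trend subtracted. SMAD7 thus fell below 0 only on the scale with the pseudocount of 1. SMAD7 had 42 counts (0.354 FPKM) in the USP6 library and 5 (0.0428 FPKM) in the pccl library, 8.26-fold higher (3.27 to 26.7). SMAD6, the more BMP-specific of the pair and the gene with the palindrome in its window, had 232 counts (1.68 FPKM) in the USP6 library and 177 (1.30 FPKM) in the pccl library, 1.29-fold higher (1.06 to 1.58). Summed, the pair had 274 counts in the USP6 library and 182 in the pccl library, 1.48-fold higher (1.22 to 1.80), whereas the 4 receptor-regulated SMADs had 945 in the USP6 library and 1382 in the pccl library, 1.49-fold lower (1.37 to 1.62). These sums are without GC centring. The 2 expressed receptor-regulated SMADs, SMAD2 and SMAD5, had a median log2 ratio of -0.28, or 0.06 with the GC trend subtracted.

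**Figure D3:**
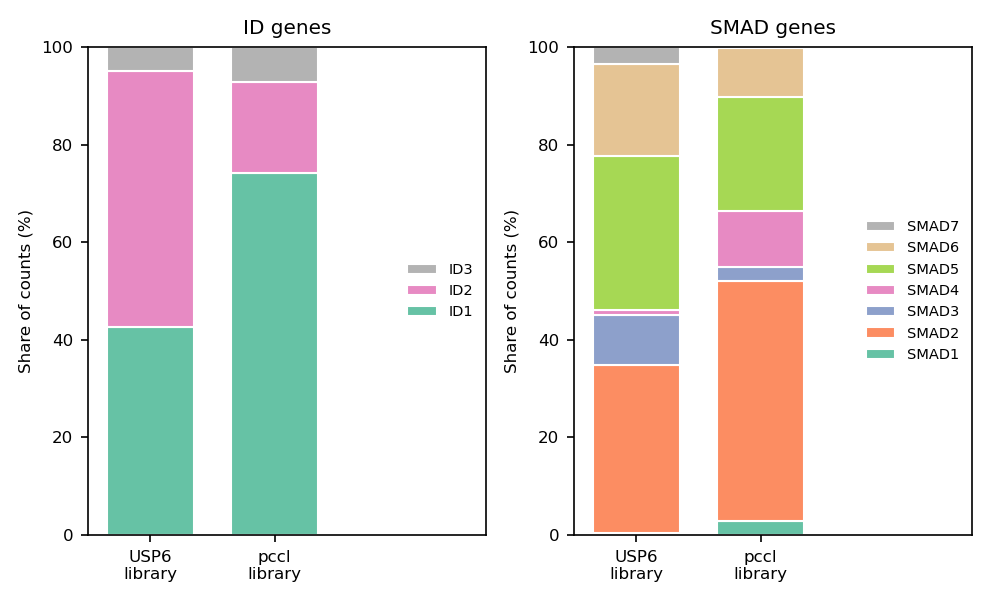
Share of the summed counts of 3 ID genes (left) and 7 SMAD genes (right) held by each gene, with the USP6 library left of the pccl library. Counts also depend on gene length, so heights compare libraries and not genes; ID2 holds 52.5% of ID counts in the USP6 library and 18.6% in the pccl library, and SMAD4 holds 1.06% of SMAD counts in the USP6 library and 11.5% in the pccl library.

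Of the nuclear repressors, SKI and SKIL were nearly level between the libraries and the TGIF genes were lower in the USP6 library. With the GC trend subtracted, the log2 ratios were -0.50 for SKI, 0.27 for SKIL, -0.68 for TGIF1 and -0.56 for TGIF2, so that SKI stood near TGIF2. SKI and SKIL (SnoN) bind SMAD complexes and recruit co-repressors. SKI had 245 counts (2.98 FPKM) in the USP6 library and 234 (2.89 FPKM) in the pccl library, a ratio of 1.03 (0.857 to 1.24). SKIL had 299 counts (1.61 FPKM) in the USP6 library and 250 (1.37 FPKM) in the pccl library, a ratio of 1.18 (0.991 to 1.40). The homeodomain proteins TGIF1 and TGIF2 repress SMAD2 and SMAD3 at their target genes. TGIF1 (chr18:3411608-3459978, plus strand) had 123 counts (0.537 FPKM) in the USP6 library and 459 (2.04 FPKM) in the pccl library, 3.80-fold lower (3.10 to 4.67), a log2 ratio of -0.98. TGIF2 had 125 counts (1.0 FPKM) in the USP6 library and 214 (1.75 FPKM) in the pccl library, 1.74-fold lower (1.39 to 2.19).

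The 3 detected ID genes were all higher in the USP6 library, and ID2 stood apart from the others. With the GC trend subtracted, the log2 ratios of ID1 and ID3 both came to 0.06. In count share with the trend subtracted, ID1 turned to -0.07 and ID3 stood at 0.26. ID2 (ENSG00000115738, chr2:8678845-8684453, plus strand) had 618 counts (11.1 FPKM) in the USP6 library and 85 (1.56 FPKM) in the pccl library, a log2 ratio of 2.25. The interval of its 7.15-fold higher level ran from 5.69 to 9.08. ID1 (chr20:31605283-31606515, plus strand) had 503 counts (18.0 FPKM) in the USP6 library and 338 (12.3 FPKM) in the pccl library, 1.46-fold higher (1.27 to 1.68). ID3 had 57 counts (1.65 FPKM) in the USP6 library and 33 (0.969 FPKM) in the pccl library, 1.70-fold higher (1.09 to 2.69). The interval of ID2 did not overlap those of ID1 and ID3. The antisense gene ID2-AS1 had 7 counts in the USP6 library and 0 in the pccl library; antisense reads counted for ID2 itself were not measured.

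The make-up of the ID pool differed with ID2. Of all ID counts, ID2 held 52.5% in the USP6 library (exact 95% interval 49.6 to 55.3) and 18.6% in the pccl library (15.2 to 22.5). ID1 held 42.7% in the USP6 library (39.9 to 45.6) and 74.1% in the pccl library (69.8 to 78.1). Per length of merged exons, ID1 was the higher of the pair in both libraries, with ID2 at 0.687 times its level in the USP6 library and at 0.141 times in the pccl library. On that scale ID2 lay above 89.0% of expressed genes in the USP6 library and above 45.2% in the pccl library, whereas ID1 lay above 92.4% in the USP6 library and above 89.8% in the pccl library. Of the E proteins that IDs bind, TCF3 had 1232 counts in the USP6 library and 783 in the pccl library, a log2 ratio of 0.51, or -0.08 with the GC trend subtracted. TCF12 had 169 counts in the USP6 library and 222 in the pccl library, 1.34-fold lower (1.09 to 1.64), and TCF4 had 0 in both.

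The 3 other targets were not expressed in either library. BAMBI, a decoy receptor without a kinase domain, had 14 counts in the USP6 library and 2 in the pccl library, a ratio of 6.88 (1.58 to 62.4). PMEPA1, a TGF-beta-induced membrane protein that limits SMAD2 and SMAD3, had 22 counts in the USP6 library and 7 in the pccl library, a ratio of 3.09 (1.27 to 8.56). TGFBI, an extracellular matrix protein named for its induction by TGF-beta, had 0 counts in the USP6 library and 2 in the pccl library, and no fold is given.

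The gene lengths behind the deposited FPKM kept SMAD3 and SMAD4 under the filter of 1 FPKM. The length implied by count and FPKM equalled the sum of all distinct annotated exons, overlaps counted repeatedly, within 1% for 9926 of 11366 genes (87.3%) and for 25 of the 30 genes of the set with a count. It exceeded the length of the merged exons by a median factor of 1.70 in the set and 1.54 over all genes. For SMAD4 the implied length was 25461 bases against 13123 merged, for TGIF1 18295 against 8222, and for SMAD2 58135 against 36366. With FPKM recomputed per merged exons, SMAD4 had 0.0791 in the USP6 library and 1.26 in the pccl library, and its log2 ratio was -1.06. TGIF1 then had 1.19 in the USP6 library and 4.54 in the pccl library, with a log2 ratio of -1.33. On this scale 20 genes of the set were expressed, with 2 higher (ENG and ID2), against 14.9% of all 11281 expressed genes, and 3 lower (TGFBR2, SMAD4 and TGIF1), against 12.7%.

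A count of at least 50 in 1 library and a 2-fold difference in count share, which uses no length and no pseudocount, took in 21 genes of the set. Of these, 3 were higher (ENG, SMAD3 and ID2), against 21% of all 10617 genes that met the same minimum. A further 6 were lower (TGFBR2, BMPR2, SMAD1, SMAD2, SMAD4 and TGIF1), against 21.1% of all. The median log2 ratio of the count share was -0.10 over the 21 genes and 0.02 over all genes. ID2, ENG and TGFBR2 passed under the deposited FPKM, the merged length and the count share alike, while SMAD1 and SMAD4 had log2 ratios of -0.41 and -0.66 with the pseudocount of 1 and of -3.70 and -3.99 in count share.

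**Figure D4:**
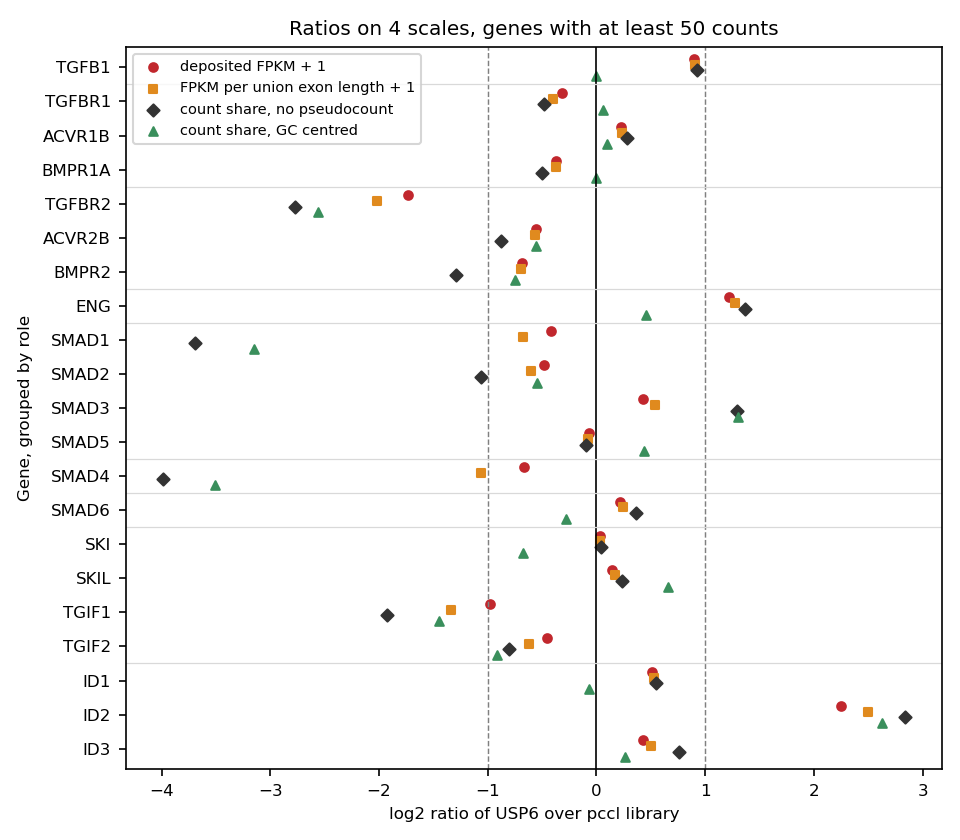
Log2 ratio of the USP6 over the pccl library for the 21 genes with at least 50 counts in 1 library, on 4 scales: deposited FPKM + 1, FPKM per merged (union) exon length + 1, count share, and count share centred on the trend with GC content. Dashed lines mark 1 and -1; ID2 lies beyond 1 and TGFBR2 beyond -1 on all 4 scales, while SMAD1 and SMAD4 move most between scales.

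The ratio followed the GC content of the transcripts, in this set as in all genes. Spearman's rho of the log2 ratio with the GC content of the longest transcript was 0.61 over the 18 expressed genes of the set and 0.46 over 8251 protein-coding genes; the points share 1 pair of libraries. The 9 genes of the set under 50% GC had a median log2 ratio of -0.48 and 8 of them were below 0. The 9 genes at or above 50% had a median of 0.43 and 8 were above 0. Over all genes the medians were -0.27 under 50% GC and 0.43 at or above it. Of all expressed genes, 62.5% of those under 50% GC were below 0, and 70.5% of those at or above it were above 0. With the trend over all genes subtracted, the log2 ratio of ID2 was 2.07, that of TGFBR2 was -1.62 and that of ENG was 0.54. TGFB1, ID1 and ID3 came to 0.21, 0.06 and 0.06. In count share with the trend subtracted, SMAD4 stood at -3.51, SMAD1 at -3.15, TGIF1 at -1.45 and SMAD3 at 1.30, whereas BMPR2 stood at -0.75 and SMAD2 at -0.54. Higher counts for GC-rich genes thus moved with the USP6 library, and their part in the levels of the set beyond this subtraction was not tested.

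**Figure D5:**
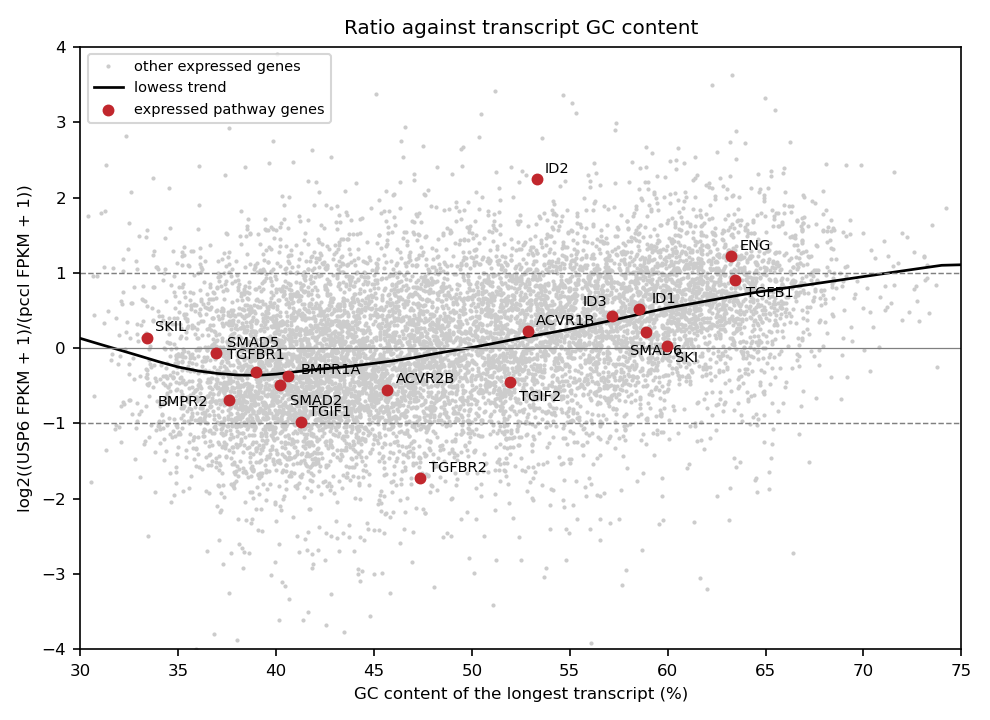
Log2 ratio of the USP6 over the pccl library against the GC content of the longest transcript, for all expressed genes (grey), with the lowess trend (line) and the 18 expressed genes of the set (red). Dashed lines mark the limits of 1 and -1. TGFB1 lies 0.21 above the trend and ENG 0.54 above it, while ID2 lies above the trend at 2.25 and TGFBR2 below it at -1.73.

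The 123 other genes of the pathway, in 9 lists, had 53 expressed genes, of which 10 were higher (18.9%, against 13.7% of all genes) and 2 lower (3.77%, against 11.4%), with a median log2 ratio of 0.10. Extracellular activators and antagonists counted 9 expressed genes, of which 5 were higher and 0 lower, with a median log2 ratio of 1.02. Among them, NOG, a secreted BMP antagonist, had 33.5 FPKM in the USP6 library and 11.2 in the pccl library, 3.0-fold higher (2.60 to 3.46). FURIN, the protease that cleaves the TGF-beta precursor, was 2.85-fold higher (2.61 to 3.12), FSTL3, an activin antagonist, 2.94-fold (2.40 to 3.62), and LTBP4, a latent TGF-beta carrier, 2.88-fold (2.52 to 3.30). With the GC trend subtracted, the median of this list was 0.40 and none of its genes passed the limit. The 3 expressed ligands outside the set included AMH, anti-Müllerian hormone, at 34.2 FPKM in the USP6 library and 14.2 in the pccl library, a log2 ratio of 1.21, or 0.14 with the GC trend subtracted.

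Inside the cell, the lists held single genes past the limit. FKBP1A, which binds type I receptors and holds them inactive, had 770 counts in the USP6 library and 205 in the pccl library, 3.69-fold higher (3.16 to 4.33). STRAP, which works with SMAD7 at the receptor, had 365 counts in the USP6 library and 1078 in the pccl library, 3.0-fold lower (2.67 to 3.39). Among 12 expressed SMAD partners only SP1, a general activator that joins SMADs at promoters, passed, with 239 counts in the USP6 library and 1669 in the pccl library, 7.10-fold lower (6.20 to 8.17). TAB1, of the TAK1 branch, was 2.50-fold higher (2.07 to 3.03), with a log2 ratio of 0.47 once the GC trend was subtracted. None of the 11 expressed ubiquitin ligases, deubiquitinases and phosphatase of receptors and SMADs passed, with a median of -0.21. Of the 6 expressed further target genes, 2 were higher. MYC, which TGF-beta represses in epithelial cells, had 160 counts in the USP6 library and 22 in the pccl library, 7.15-fold higher (4.56 to 11.7), and GADD45B, a TGF-beta-induced stress gene, was 2.89-fold higher (2.47 to 3.38). With the GC trend subtracted MYC stood at 0.82 and GADD45B at 0.79, under the limit. JUNB, an early TGF-beta target, had 98 counts in the USP6 library and 156 in the pccl library. Its log2 ratio was -0.59, or -1.34 with the GC trend subtracted. FKBP1A, STRAP and SP1 stayed past the limit at 1.58, -1.22 and -2.11. RUNX3, another SMAD partner, was past the limit at -1.17 with the trend subtracted, but not at -0.80 without it.

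Of the 7 markers of KASUMI-1 and myeloid blasts, 6 were expressed. KIT had 3512 counts in the USP6 library and 8569 in the pccl library, and CD34 had 653 in the USP6 library and 1932 in the pccl library. MPO had 7373 counts in the USP6 library and 1633 in the pccl library. CD38 was not expressed, with 8 counts in the USP6 library and 0 in the pccl library. Some markers of other lineages were also expressed, while others of the same lists were near or at 0. In the USP6 and pccl libraries, CD3G had 5 and 3 counts, MS4A1 1 and 0, CD14 7 and 1, and PF4 0 in both. The 7 T cell markers summed to 929 counts in the USP6 library and 630 in the pccl library. Of the 4 expressed, 3 were higher in the USP6 library and 1 was lower. CD3D was lower at 436 counts in the USP6 library against 527 in the pccl library. CD3E was higher at 372 against 75, CD2 at 81 against 4 and TRAC at 27 against 3. B cell markers summed to 599 counts in the USP6 library and 229 in the pccl library. Of these, CD79A made up 321 in the USP6 library and 78 in the pccl library, and PAX5 made up 162 and 119. The monocyte and macrophage sum of 380 counts in the USP6 library and 82 in the pccl library held 285 counts of ITGAM in the USP6 library and 10 in the pccl library, while LYZ had 3 in the USP6 library and 18 in the pccl library and CD68 had 2 in the USP6 library and 19 in the pccl library. EPOR made up 162 of the 174 erythroid counts in the USP6 library and 39 of 50 in the pccl library. GP1BB made up 699 of the 802 megakaryocyte counts in the USP6 library and 378 of 413 in the pccl library. The 8 stromal markers summed to 3 counts in the USP6 library and 14 in the pccl library and none was expressed. Whether cells of other types were present was not tested, nor was their part in the levels of the pathway genes.

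Another gene with a count in at least 1 library overlaps 11 of the 33 genes. For example, ORC4, opposite ACVR2A, had 69 counts in the USP6 library and 195 in the pccl library.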

How the data were processed

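The authors deposited 1 table that holds, per the file headers, the count and the FPKM of each gene in the USP6 and the pccl library. Per the submitters' processing notes the tools were edgeR, StringTie 1.3.3b and HISAT2 2.0.4, with no role stated for any. The genome build, the annotation and the strandedness are not given in the sources used here. Deposited counts were whole numbers, and each library's FPKM was scaled by its full count total, mitochondrial genes included. Loci were as in GENCODE 29 (GRCh38) for 30 of the 33 genes; BMPR1A, LTBP3 and SMAD7 differed.

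The genes and lists were chosen with earlier results of these data known. All 33 genes were described, and from each pathway list up to 4 expressed genes past the limit were named. ACVRL1, NRP1, JUNB, RUNX3, SMAD9, TCF3, TCF12 and single marker genes were chosen after their values were seen. Exon lengths and GC content (longest transcript) came from GENCODE 29, and the GC trend was a lowess fit with a span of 0.3. Alternatives were pseudocounts of 0.1, 0.5 and 5, a 5 FPKM filter, a 1.5-fold limit, scaling by the trimmed mean of M values, by nuclear counts or to a median of 0, and GC centring. Merged exon length and the minimum of 50 counts, with and without GC centring, were added after seeing the data. With 0 residual degrees of freedom no count model was fitted. The log2 ratio, its limit, the filter of 1 FPKM and the intervals were tested on simulated counts with counting error only. Changes were placed in abundant genes only, and the other steps were not tested this way. Tools were edgeR 4.0.16 under R 4.3.3 and, under Python 3.11.15, SciPy 1.17.1, pandas 2.3.3, NumPy 2.4.6, matplotlib 3.10.9 and statsmodels 0.14.6.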

Additional observations from a re-analysis of the deposited data

How the results depend on the processing

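No paired analysis was possible because each group holds 1 library. ID2 was above 1 and TGFBR2 below 0 in the main and all 10 other settings that give single genes a value, with log2 ratios of 1.30 to 2.84 and of -2.78 to -0.75; ENG ranged from 0.46 to 1.37, under 1 with a pseudocount of 5, with GC centring and with both GC centring and the count rule. The set had 2 higher genes, but 1 with a pseudocount of 5, 1 with GC centring, 3 with a 1.5-fold limit and 3 with at least 50 counts and a 2-fold share. It had 1 lower gene, but 3, 2 and 0 with pseudocounts of 0.1, 0.5 and 5, 0 with a filter of 5 FPKM, 2 with each of the 3 other scalings, 3 with a 1.5-fold limit, 3 per merged exon length, 6 with at least 50 counts and a 2-fold share, and 4 when these were GC centred. With GC centring, 9.68% of all expressed genes were higher and 9.85% lower. With at least 50 counts and a 2-fold share, GC centred, these shares were 17.3% and 17.7% of all genes. The median of the set, -0.02, was 1.06 with the filter of 5 FPKM, which kept only 4 of its genes, TGFB1, ENG, ID1 and ID2. TGFBR2, at 4.49 FPKM in the pccl library, fell under this filter. The median of all genes, 0.06, was -0.03 with the trimmed mean of M values, -0.05 with nuclear counts and 0 with median centring. The 10 higher genes of the other lists became 3 with a pseudocount of 5, 6 with nuclear counts, 2 with GC centring and 16 with a 1.5-fold limit. Their 2 lower genes became 8 and 6 with pseudocounts of 0.1 and 0.5, 4 with GC centring, 12 with a 1.5-fold limit, 5 per merged exon length, 11 with at least 50 counts and 8 when these were GC centred. Of all 10153 expressed genes, 1396 were higher and 1156 lower. These became 2295 and 1993 with a pseudocount of 0.1, 1854 and 1584 with 0.5, and 364 and 301 with 5. With the filter of 5 FPKM they were 808 and 682 of 4128 genes, and with a 1.5-fold limit 2808 and 2465 of 10153. The trimmed mean of M values gave 1197 and 1344 of 10137, and nuclear counts 1163 and 1372 of 10136. Median centring gave 1210 and 1319 of 10153. With at least 50 counts they were 2227 and 2237 of 10617, where GC centring left 1832 and 1872 of 10569. Genes under 50 counts in both libraries, among them SMAD7, BAMBI, PMEPA1, TGFB3, ACVR1 and ACVR2A, have wide intervals, and depth limits what can be said of them.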

Other observations

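Among the receptors outside the set, 2 of 10 were expressed. ACVRL1 (ALK1), the type I receptor that works with ENG in endothelium, had 105 counts (1.07 FPKM) in the USP6 library and 18 (0.186 FPKM) in the pccl library, 5.73-fold higher (95% interval 3.46 to 10.1). NRP1, a co-receptor for TGF-beta as well as for VEGF, had 529 counts (2.40 FPKM) in the USP6 library and 168 (0.776 FPKM) in the pccl library, 3.10-fold higher (2.60 to 3.70). Their log2 ratios with the pseudocount were 0.80 and 0.94, short of the limit, and both genes were chosen after their values were seen. With the GC trend subtracted the log2 ratios were 0.41 for ACVRL1 and 1.15 for NRP1.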
